A study of Mus musculus with 2 samples.

Results

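The 7 genes described here encode the H3K9 methyltransferase SETDB1, its direct partners ATF7IP, RESF1 and TRIM28, and the HUSH-pathway proteins MPHOSPH8, MORC2A and PPHLN1. They were taken by symbol, and all 7 of 7 were found among the 55487 genes of the files. The study, on SETDB1 in muscle stem cells during regeneration, holds 2 single-cell libraries from mice aged 8 to 12 weeks, 1 labelled KO (the conditional model Setdb1-cKO) and 1 labelled WT, made by the droplet method that tags transcript 3′ ends. In both, injured TA (tibialis anterior) muscle was broken up with collagenase II, then dispase, and cells were sorted on Hoechst and propidium iodide, and the labels name no surface marker. The sources used here do not give the Cre driver, the deleted exons, the kind or day of injury, or how many animals went into a library. With 1 library per group there was no replicate check and no test: every ratio below compares these libraries, and every interval covers counting error only.

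SETDB1 places trimethyl marks on lysine 9 of histone H3, the mark of silent chromatin over retroelements and many lineage-inappropriate genes. ATF7IP binds SETDB1, keeps it in the nucleus and protects it from degradation, and RESF1 is a retroelement silencing factor that binds SETDB1 in mouse embryonic stem cells. TRIM28 (KAP1) brings SETDB1 to DNA through KRAB zinc-finger proteins. The HUSH complex, known best from human cell lines, joins the scaffold TASOR to MPHOSPH8, which reads the H3K9 mark, and to periphilin (PPHLN1), and works with SETDB1 and the ATPase MORC2. In muscle, SETDB1 has been studied as a regulator of the myoblast and of the adult muscle stem cell, the Pax7 cell that rebuilds fibres after injury.

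On GRCm38, Atf7ip lies at chr6:136506167-136610862 (+ strand) and Resf1 at chr6:149309414-149335663 (+ strand), 12.7 Mb apart. Setdb1 lies at chr3:95323525-95357202 (- strand), Trim28 at chr7:12999114-13031035 (+ strand), Mphosph8 at chr14:56668248-56697430 (+ strand), Morc2a at chr11:3649191-3690477 (+ strand) and Pphln1 at chr15:93398350-93491510 (+ strand). Exons of Setdb1 share 75 bases with Cers2 on the opposite strand, and exons of Morc2a share 483 bases with the noncoding Tug1 on the opposite strand. Also on the opposite strand, Setdb1 shares 249 exonic bases with Gm37500, Mphosph8 384 with Gm16973 and Atf7ip 83 with Gm44140. The sources used here do not say whether counting used strand, so reads from those shared bases cannot be assigned with certainty. In the myogenic stem cells described below, Cers2 had 150 UMIs in KO and 457 in WT, and Tug1 had 66 in KO and 186 in WT. Gm37500 had 0 in KO and 1 in WT, Gm16973 had 1 and 12, and Gm44140 had 0 in both.

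Promoters are shown for the targeted gene and for both genes whose levels differed most between the libraries, so that their sequences can be read side by side. They are RefSeq windows of 300 bases (GRCm38.p6, 250 before to 50 after the annotated start), written 5′ to 3′ on the gene's strand: Setdb1 chr3:95357153-95357452 (-), Atf7ip chr6:136518601-136518900 (+) and Resf1 chr6:149309164-149309463 (+). The Atf7ip window lies inside the gene span given above, whose first base is 136506167, so its counts describe the RefSeq start and not that end. The same holds for the Trim28 window, at 13023902 in a span from 12999114. Capitals mark CCAAT (the CCAAT box) or GGGCGG (the GC box), searched on both strands, with no overlap between them in the windows shown.
Setdb1: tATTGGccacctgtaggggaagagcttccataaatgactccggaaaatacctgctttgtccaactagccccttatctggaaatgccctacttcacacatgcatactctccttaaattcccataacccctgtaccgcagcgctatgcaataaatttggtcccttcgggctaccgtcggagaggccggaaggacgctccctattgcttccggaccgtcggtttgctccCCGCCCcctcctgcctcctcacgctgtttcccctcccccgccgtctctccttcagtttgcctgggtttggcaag
Atf7ip: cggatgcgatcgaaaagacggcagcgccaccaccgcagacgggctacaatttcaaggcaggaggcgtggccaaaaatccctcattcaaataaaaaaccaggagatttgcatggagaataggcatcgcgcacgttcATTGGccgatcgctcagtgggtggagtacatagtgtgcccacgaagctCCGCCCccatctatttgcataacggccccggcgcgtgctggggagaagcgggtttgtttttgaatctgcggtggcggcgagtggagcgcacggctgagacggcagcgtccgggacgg
Resf1: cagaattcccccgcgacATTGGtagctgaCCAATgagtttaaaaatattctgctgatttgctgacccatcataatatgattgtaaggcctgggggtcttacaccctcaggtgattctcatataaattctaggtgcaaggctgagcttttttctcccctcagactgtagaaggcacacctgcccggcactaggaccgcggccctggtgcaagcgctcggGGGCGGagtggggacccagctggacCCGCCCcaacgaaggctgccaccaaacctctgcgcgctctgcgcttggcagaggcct
Resf1 held 2 CCAAT and 2 GGGCGG matches, and Atf7ip and Setdb1 held 1 of each. Of 32851 promoters of that length, 37.4% held CCAAT, 35.7% held GGGCGG and 12.8% held both. The windows of Resf1, Atf7ip and Setdb1 held 13, 29 and 15 CpG, against a median of 7 over all promoters. Of the other members, Mphosph8 and the first of 2 listed Morc2a promoters held both motifs, Trim28 held GGGCGG without CCAAT, and neither motif was found in the 2 listed Pphln1 promoters. Holding both motifs is thus shared by Resf1 and Atf7ip with Setdb1, Mphosph8 and Morc2a.

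Cells were barcodes with at least 5000 UMIs, 6411 in KO and 6345 in WT after filtering, and 9 barcode sequences of that depth occurred in both libraries. Clusters were named from marker genes, with the 7 genes and the pathway genes kept out of clustering, and class names stand for cells that resemble that type. Myogenic cells numbered 382 in KO and 680 in WT and were split into stem cells (132 and 498), cycling cells (183 and 138) and Myog cells (67 and 44). The WT Myog cells are under 50, and values there are the least precise. Median depth was 15344 UMIs in KO and 16419 in WT stem cells, 25626 and 23243 in KO and WT cycling cells, and 23722 and 24176 in KO and WT Myog cells. Defining markers were present under each name: stem cells had 187 CPM of Pax7 in KO and 195 in WT, cycling cells 547 and 542 CPM of Top2a, and Myog cells 3031 and 4451 CPM of Myog, where CPM is a gene's UMIs per 1000000 UMIs of the summed cells. KO stem cells also carried more Myog than WT ones, 82.5 CPM against 28.0 CPM. The markers of T cells were near 0 (Cd3e was at 0 UMIs in both stem sums). Phagocyte markers summed to 1275 CPM in KO and 1166 CPM in WT stem cells, but to 2814 and 1580 CPM in cycling cells, where erythroid markers stood at 1456 CPM in KO and 37.3 CPM in WT. The part of these other markers in the results was not tested, beyond the values without such barcodes given below.

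Setdb1, the targeted gene, was lower in KO myogenic cells as a whole, at 8.64 CPM (77 UMIs) against 18.1 CPM (242 UMIs) in WT, a KO/WT ratio of 0.477 (95% interval 0.364 to 0.619). In stem cells it stood at 10.4 CPM in KO (22 UMIs) and 15.4 CPM in WT (131 UMIs), a ratio of 0.674 whose interval, 0.409 to 1.06, includes 1. In cycling cells it stood at 9.17 CPM in KO and 24.2 CPM in WT, a ratio of 0.379 (0.259 to 0.548). In Myog cells it stood at 5.31 CPM in KO (10 UMIs) and 18.8 CPM in WT (21 UMIs), a ratio of 0.283 (0.119 to 0.628), which was 0.493 with each cell thinned to 5000 UMIs. The KO value was thus the lower in every myogenic state, with counting intervals clear of 1 in cycling and Myog cells but not in stem cells. The stem value is also the one that depended most on cell selection: with no doublets removed, which regroups the states, it was 0.403, and 10 of 13 other settings put it past 1.5-fold. Tags lie at the transcript's 3′ end, so remaining UMIs count any Setdb1 transcript with that end, whether or not it holds the deleted part, and the level of intact transcript was not measured.

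**Figure D1:**
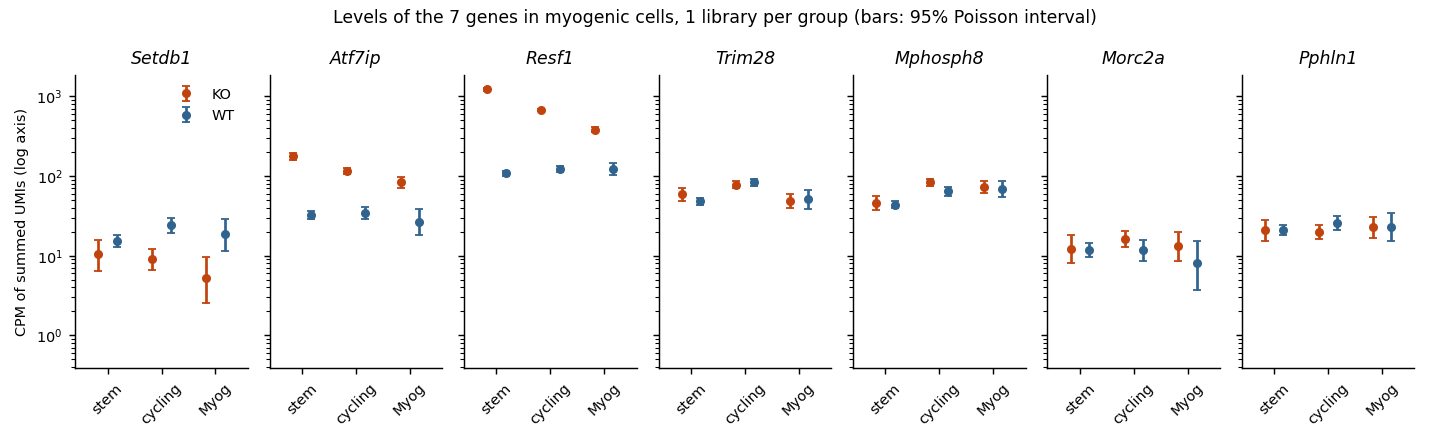
Levels of the 7 genes in myogenic stem, cycling and Myog cells; the y axis is CPM of summed UMIs on a log scale, points are 1 library each (KO left of WT) and bars are 95% Poisson intervals. Resf1 stands at 1229, 679 and 382 CPM in KO against 108, 122 and 122 CPM in WT, and Atf7ip is likewise higher in KO in each state, while Trim28, Mphosph8, Morc2a and Pphln1 lie close together.

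Resf1, the retroelement silencing factor, had the largest KO/WT difference of the 7 genes in stem and cycling cells. In stem cells it reached 1229 CPM in KO (2605 UMIs, interval 1182 to 1277) and 108 CPM in WT (918 UMIs, 101 to 115). That is a ratio of 11.4 (10.6 to 12.3). In cycling cells it reached 679 CPM in KO (3335 UMIs) and 122 CPM in WT (455 UMIs), a ratio of 5.56 (5.04 to 6.14). In Myog cells it reached 382 CPM in KO (719 UMIs) and 122 CPM in WT (137 UMIs), a ratio of 3.12 (2.596 to 3.77). KO counting intervals lay far above the WT intervals in all 3 states, and with no doublets removed, which regroups the states, the Myog ratio was 4.96.

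Atf7ip, the partner that stabilises SETDB1, followed the same order on a smaller scale. In stem cells it had 176 CPM in KO (373 UMIs) and 32.3 CPM in WT (275 UMIs), a ratio of 5.45 (4.65 to 6.39). In cycling cells it had 115 CPM in KO (565 UMIs) and 34.6 CPM in WT (129 UMIs), a ratio of 3.32 (2.74 to 4.05). In Myog cells it had 83.9 CPM in KO (158 UMIs) and 26.8 CPM in WT (30 UMIs), a ratio of 3.13 (2.11 to 4.80). The KO and WT intervals did not overlap in any state, and in Myog cells the ratios of Atf7ip and Resf1 were nearly equal. With each cell thinned to 5000 UMIs, Atf7ip was 5.06 in cycling and 4.76 in Myog cells.

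Trim28, the corepressor that links SETDB1 to KRAB zinc-finger proteins, was within 1.5-fold in each state. It had 59.0 CPM in KO and 48.2 CPM in WT stem cells (ratio 1.22, 0.994 to 1.499), 78.2 and 83.0 CPM in cycling cells (0.943, 0.809 to 1.10), and 48.9 and 50.9 CPM in Myog cells (0.960, 0.682 to 1.36). Every Trim28 interval included 1, and a difference of more than 1.5-fold lay outside the interval in stem and cycling cells. With each cell thinned to 5000 UMIs the Myog ratio was 1.56, above 1 and past 1.5-fold.

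The HUSH reader Mphosph8 had 46.2 CPM in KO and 43.8 CPM in WT stem cells (ratio 1.05, 0.836 to 1.32) and 73.3 and 69.7 CPM in Myog cells (1.05, 0.791 to 1.41). In cycling cells it had 83.7 CPM in KO and 64.5 CPM in WT, a ratio of 1.30 (1.11 to 1.53), the one Mphosph8 interval clear of 1 among the states. Morc2a, the ATPase, had 12.3 CPM in KO and 11.7 CPM in WT stem cells (26 and 100 UMIs, ratio 1.04, 0.651 to 1.62). It had 16.3 and 11.8 CPM in cycling cells (1.38, 0.943 to 2.04) and 13.3 and 8.04 CPM in Myog cells (25 and 9 UMIs, 1.65, 0.746 to 4.02), intervals too wide to tell a ratio of 1 from 1.5. The HUSH subunit Pphln1 had 21.2 CPM in KO and 21.0 CPM in WT stem cells (1.01, 0.711 to 1.41), 19.97 and 26.1 CPM in cycling cells (0.766, 0.573 to 1.03), and 22.8 and 23.2 CPM in Myog cells (0.983, 0.591 to 1.67). Thinning each cell to 5000 UMIs moved Morc2a to 0.377 in stem and 2.15 in cycling cells, and Pphln1 to 0.469 in Myog cells, at few UMIs. In full depth Mphosph8, Morc2a and Pphln1 did not pass 1.5-fold in any state where they had at least 50 UMIs. The direction of the near-level ones turned with scaling: Mphosph8 in stem cells was 0.946 under TMM scaling. The HUSH scaffold Tasor, described below with the listed silencing genes, passed 1.5-fold in stem (1.61) and cycling cells (1.58) but not in Myog cells. With median-of-ratios scaling the stem Tasor ratio was 1.49, inside 1.5-fold.

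Set against all genes, Resf1 and Atf7ip stood at the upper edge. A gene was counted as past the fold when its CPM ratio was at least 1.5 or at most 1/1.5, among genes with at least 50 UMIs in both libraries together. In stem cells, 10.8% of 9539 genes were higher by that rule and 5.94% lower, and of the 7 members 2 were higher and 0 lower. Resf1 was exceeded by 10 genes and Atf7ip by 23. In cycling cells 6.51% were higher and 6.89% lower of 9182 genes, and 2 members were higher (Resf1, exceeded by 41 genes, and Atf7ip, by 65) and 1, Setdb1, lower, with 61 genes below it. In Myog cells 9.26% were higher and 6.85% lower of 5434 genes, and of the 5 members with 50 UMIs 2 were higher (Atf7ip, exceeded by 39 genes, and Resf1, by 41) and 0 lower. The median log2 ratio of the stem members was 0.08, against 0.11 over all stem genes. Scaled to that median, the stem Resf1 ratio was 10.5. Over all myogenic cells together, 2 members were higher, against 9.7% of all genes, and 1 (Setdb1) lower, against 9.4%.

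**Figure D2:**
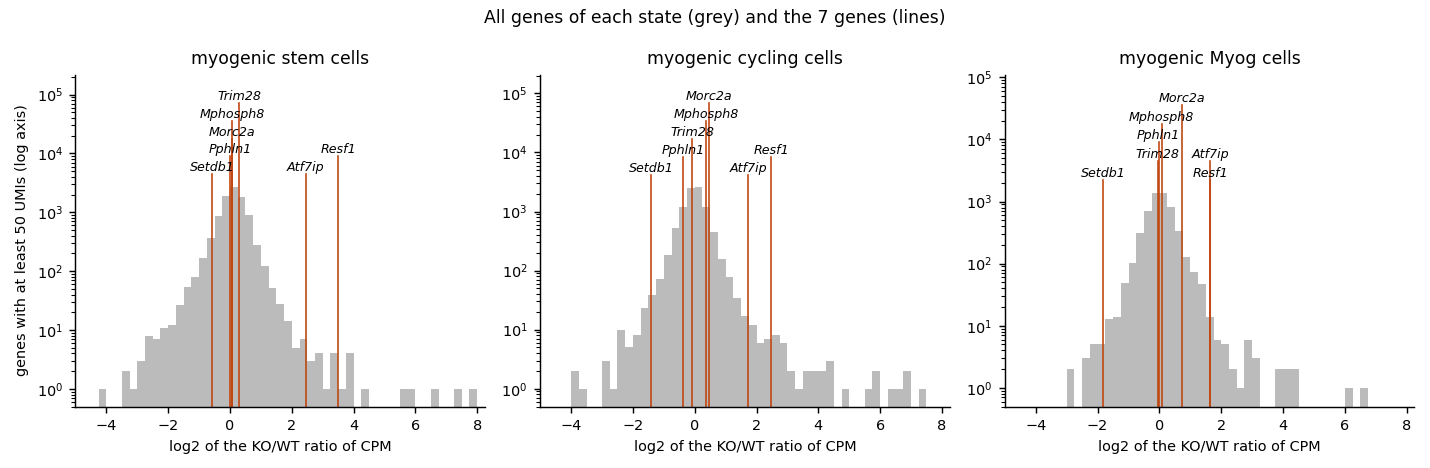
KO/WT log2 ratios of all genes with at least 50 UMIs in 3 myogenic states; grey bars count genes (log axis) in steps of 0.25 and lines mark the 7 genes, of which Setdb1 and Morc2a have under 50 UMIs in Myog cells. Resf1 and Atf7ip lie in the upper tail in each state and Setdb1 in the lower part.

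The higher levels were spread over many cells. In stem cells, 127 of 132 KO cells had a Resf1 UMI (96.2%) and 324 of 498 WT cells (65.1%), and the median cell had 1012 CPM in KO and 65.0 CPM in WT. The WT 95th percentile was 371 CPM, and 111 KO cells (84.1%) lay above it, and 5 of 132 KO cells lay at or below the WT median. The highest WT stem cell reached 2076 CPM, and 22 KO cells exceeded it, the highest at 8324 CPM. For Atf7ip, the median stem cell had 142 CPM in KO and 0 CPM in WT, and 70 KO cells (53.0%) lay above the WT 95th percentile of 131 CPM. In cycling cells, 113 of 183 KO cells (61.7%) lay above the WT 95th percentile for Resf1 and 71 (38.8%) for Atf7ip. In Myog cells it was 34 of 67 (50.7%) for Resf1 and 9 (13.4%) for Atf7ip. KO stem cells thus ranged from above every WT stem cell to no UMI at all, and the share above the WT 95th percentile was smaller in Myog than in stem cells.

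**Figure D3:**
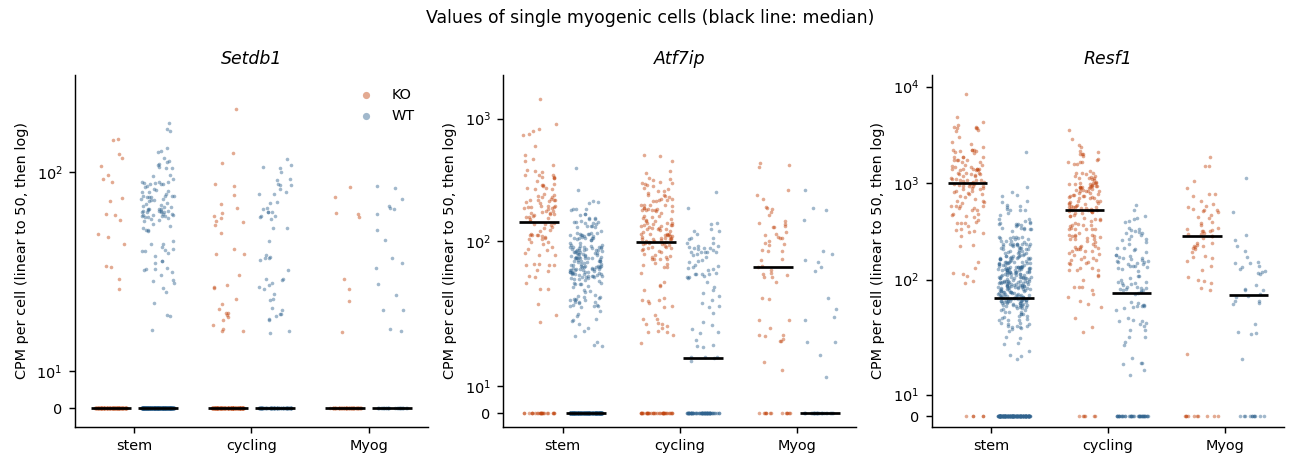
Setdb1, Atf7ip and Resf1 in single myogenic cells by state; the y axis is CPM per cell, linear to 50 and then logarithmic, each point is a cell (KO left of WT) and black lines are medians. The Resf1 medians are 1012, 528 and 285 CPM in KO and 65.0, 72.2 and 69.7 CPM in WT, in the order stem, cycling, Myog.

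At a common depth of 2000 UMIs per cell, which no cell fell short of, Resf1 was detected in 78.0% of KO stem cells (Clopper-Pearson interval 70.0 to 84.8) and 16.5% of WT stem cells (13.3 to 20.02). Atf7ip was detected in 26.5% (19.2 to 34.9) and 4.82% (3.11 to 7.09). For comparison, phagocytes, at median depths of 11641 UMIs in KO and 11345 in WT, had Resf1 in 17.5% and 15.5% of cells and Atf7ip in 8.01% and 8.39%. The share of WT stem cells with Resf1 lay between those of KO and WT phagocytes, and that of KO stem cells lay far above all 3. Setdb1 at this depth was seen in 1 of 132 KO and 17 of 498 WT stem cells, too few to compare.

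KO cells in which a Setdb1 UMI was counted had more Resf1 in stem and cycling cells and less in Myog cells. The split cannot tell cells that lost Setdb1 from cells that kept it. Of 498 WT stem cells, 386 also had no Setdb1 UMI. In stem cells the 20 KO cells with a Setdb1 UMI had 1516 CPM of Resf1, and the 112 without had 1170 CPM, a ratio of 1.30 (1.18 to 1.42). The same split gave 1.29 in WT (1.12 to 1.49), where 112 cells had a Setdb1 UMI. In KO cycling cells the split gave 849 CPM in 34 cells with the UMI and 629 CPM in 149 without (1.35, 1.25 to 1.46). In KO Myog cells it gave 265 CPM in 9 cells with and 400 CPM in 58 without (0.662, 0.507 to 0.853). In WT the split gave 1.07 in cycling cells (0.886 to 1.29) and 1.59 in Myog cells (1.12 to 2.28), the Myog value running opposite to that in KO. Stem cells with the UMI were deeper, at a median of 18844 against 15151 UMIs in KO and 18142 against 15518 in WT, and KO Myog cells with it shallower, at 18514 against 23900. The part of depth in this was not tested. The intervals take every UMI as independent, though the smallest group held 9 cells.

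Among the myogenic states of 1 library, the genes had different orders. In KO, Resf1 was lower in cycling than in stem cells (ratio 0.553, 0.525 to 0.582) and lower again in Myog than in cycling cells (0.562, 0.518 to 0.609), and Atf7ip likewise (0.654, 0.573 to 0.748, and 0.729, 0.607 to 0.871). In WT, Resf1 was nearly level, at 1.13 in cycling over stem cells (1.01 to 1.27) and 1.00 in Myog over cycling cells (0.821 to 1.21). Atf7ip in WT was 1.07 (0.863 to 1.33) and 0.773 (0.502 to 1.16), both intervals including 1. Trim28 was higher in cycling than in stem cells in both libraries, by 1.33 in KO (1.082 to 1.64) and 1.72 in WT (1.48 to 2.002), and so was Mphosph8, by 1.81 in KO (1.45 to 2.28) and 1.47 in WT (1.25 to 1.73). Setdb1 was 1.57 times higher in WT cycling than in WT stem cells (1.19 to 2.07), whereas in KO the ratio was 0.883 (0.520 to 1.54). Differences between these within-library ratios were not tested.

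Because states differ in level and the libraries in state makeup, the ratio over all myogenic cells mixes both. Pooled, Resf1 had a ratio of 6.61 and Atf7ip of 3.78. With the KO states weighted to the WT share of cells per state, these became 9.51 and 4.86. Mphosph8 was 1.40 pooled and 1.12 weighted, and Setdb1 0.477 pooled and 0.564 weighted. Makeup also differed within the stem state. At a finer sub-clustering, the stem part led by Dnajb1 and Mfap4 held 6 KO and 154 WT cells. The part led by G0s2 and Spp1 held 56 and 68. The ratios within states were not weighted for such parts.

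Outside the myogenic cells, in classes of at least 50 cells per library, most of the 7 genes stayed within 1.5-fold. Resf1 stood at 109 CPM in KO and 98.9 CPM in WT phagocytes (ratio 1.11, 1.06 to 1.15), 61.8 and 51.9 CPM in fibro-adipogenic cells (1.19, 1.09 to 1.30), 81.8 and 67.4 CPM in mural cells (1.21, 0.867 to 1.72), and 99.96 and 101 CPM in dendritic cells (0.986, 0.846 to 1.15). Over 9 phagocyte clusters its ratio ranged from 1.06 to 1.36, with the cycling phagocytes at 1.34 (1.12 to 1.62). Atf7ip stood at 43.1 CPM in KO and 39.4 CPM in WT phagocytes (1.10, 1.03 to 1.17) and at 33.8 and 34.5 CPM in fibro-adipogenic cells (0.980, 0.871 to 1.10). Over the phagocyte clusters the Atf7ip ratio ranged from 0.852 to 1.45. In dendritic cells it was 1.30 (1.046 to 1.62), clear of 1, where the median ratio of all genes was 1.052. It was 1.35 in tenocytes (0.917 to 2.02), 0.963 in mural cells (0.620 to 1.52) and 0.905 in cycling fibro-adipogenic cells (0.717 to 1.15). The median ratio of all measured genes was itself 1.07 in phagocytes and 1.05 in fibro-adipogenic cells. With median-of-ratios scaling, phagocyte Resf1 was 1.03 and Atf7ip 1.02. Setdb1 was higher in KO in both of these classes. It stood at 20.9 CPM against 16.4 CPM in phagocytes (1.28, 1.16 to 1.41). In fibro-adipogenic cells it stood at 16.9 CPM against 13.7 CPM (1.23, 1.03 to 1.48), an interval that includes the median of all genes there. It was lower in endothelial cells (11.4 CPM in KO and 12.1 CPM in WT, 0.941, 0.686 to 1.29), dendritic cells (12.5 and 14.6 CPM, 0.861, 0.554 to 1.32) and mural cells (9.74 and 14.8 CPM, 15 and 11 UMIs, 0.656, 0.282 to 1.58), with intervals that include 1. In WT, Resf1 in stem cells was 1.09 times its phagocyte level (1.01 to 1.17), and in KO 11.2 times (10.7 to 11.8).

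By the 1.5-fold rule, 0 of 7 members were past the fold in phagocytes (8.81% of all genes, either direction), 0 of 7 in fibro-adipogenic cells (14.5%), 0 of 7 in their cycling part (13.9%), 0 of 4 measured in mural cells (17.3%) and 0 of 6 measured in dendritic cells (11.3%). Endothelial cells had 2 of 7 higher, against 6.27% of all genes, and 0 lower, against 2.16%: Trim28 at 42.9 CPM in KO and 27.6 CPM in WT (1.55, 1.29 to 1.87) and Resf1 at 113 and 74.7 CPM (1.52, 1.36 to 1.70). Both calls end under median-of-ratios scaling (Trim28 1.46, Resf1 1.42) and TMM scaling (1.47 and 1.43), and each held in 6 of 10 alternatives. The endothelial Resf1 difference lay mostly in the cluster led by Selp, Sele and Ackr1, with 195 CPM in KO and 107 CPM in WT (1.82, 1.53 to 2.18), and less in the cluster led by Gpihbp1 and Cldn5, with 72.3 and 64.5 CPM (1.12, 0.963 to 1.31). Trim28 was similar in both clusters (1.51 and 1.57). Cycling phagocytes had Trim28 higher, at 67.0 CPM in KO and 37.0 CPM in WT (1.81, 1.32 to 2.50; 13.8% of all genes were higher), and Pphln1 lower, at 13.3 and 19.9 CPM (21 and 35 UMIs, 0.666, 0.368 to 1.18; 4.73% lower). The Pphln1 call held in 5 of 10 alternatives, and the ratio was 0.968 with each cell thinned to 5000 UMIs.

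Tenocytes ran the other way for Resf1, with 48.7 CPM in KO (103 UMIs) and 102 CPM in WT (147 UMIs), a ratio of 0.479 (0.369 to 0.621). Setdb1 was also past the fold there, at 11.8 and 18.0 CPM (25 and 26 UMIs, 0.658, 0.364 to 1.18), making 2 of 5 measured members lower, against 4.46% of all genes, and 0 higher, against 12.4%. With a minimum of 2000 UMIs the Resf1 ratio was 0.702, inside 1.5-fold. The Setdb1 call held in 8 of 10 alternatives and ended with a minimum of 10000 UMIs, at 0.737, and with each cell thinned to 5000 UMIs, at 0.732. The Resf1 value rests on few WT cells: 51.0% of 102 KO and 46.4% of 84 WT tenocytes had a UMI, the median cell was at 29.9 CPM in KO and 0 CPM in WT, and 1 WT cell reached 2205 CPM.

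**Figure D4:**
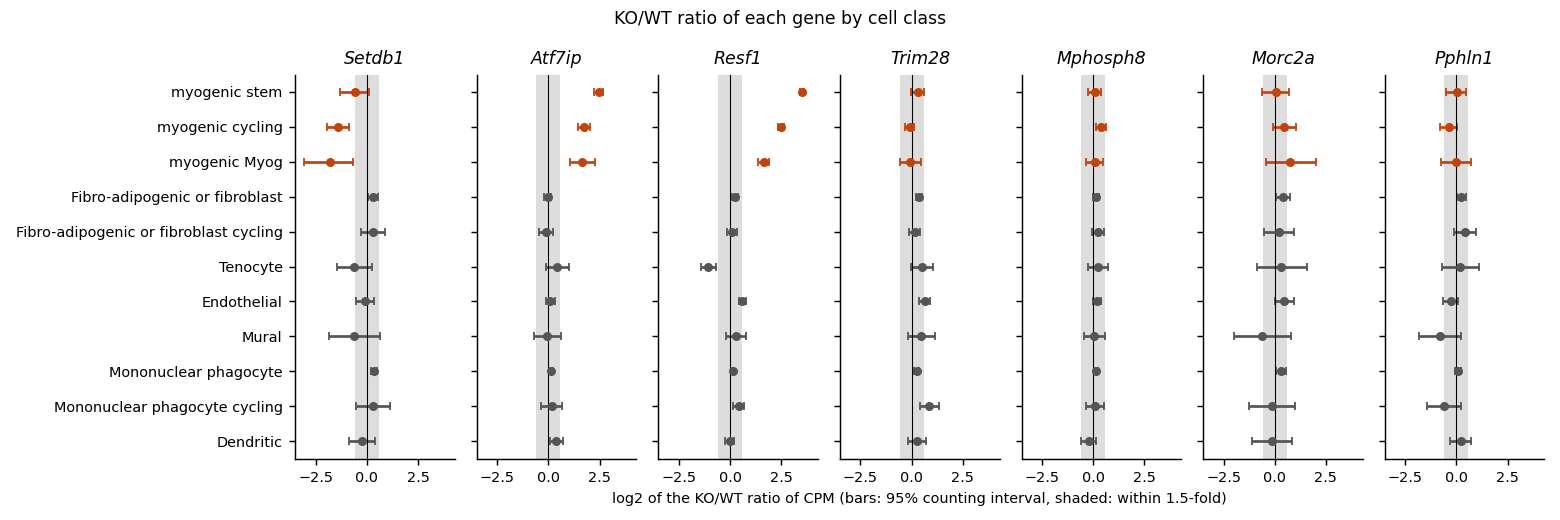
KO/WT ratio of each of the 7 genes by cell class on a log2 axis, with 95% counting intervals and the range within 1.5-fold shaded; myogenic states are in orange and other classes in grey. Resf1 and Atf7ip leave the shaded range upward in the 3 myogenic states, and among other classes Resf1 lies furthest out in tenocytes, downward at 0.479.

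Free RNA, read from barcodes of 20 to 100 UMIs, held 171 CPM of Resf1 in KO and 78.2 CPM in WT, and 34.4 and 34.0 CPM of Atf7ip. Markers of other classes limit its share to at most 1.84% of UMIs in KO and 1.42% in WT stem cells, or 3.15 and 1.11 CPM of Resf1. In cycling cells the limits were 4.88% and 1.09%. Leaving out the myogenic barcodes with more than 5000 CPM of phagocyte, endothelial, fibroblast or erythroid markers (26 of 183 KO and 8 of 138 WT cycling cells) left the cycling ratios at 5.58 for Resf1, 3.17 for Atf7ip and 0.410 for Setdb1.

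Of 51 other genes of H3K9 and retroelement silencing listed for comparison, 45 had enough UMIs in stem cells, and 9 were higher and 1 lower in KO, against 10.8% and 5.94% of all genes. With median-of-ratios or TMM scaling 6 were higher and 3 lower, and with a minimum of 2000 UMIs 5 were higher. The shares of all genes were not counted at those settings, so these counts have no background beside them. Scaling ended the calls of Tasor (1.49 with median-of-ratios scaling), Zfp932 (1.48) and Mga (1.47), and added Daxx and Hells as lower. The median log2 ratio of the list was 0.18, and of all genes 0.11. Trim24, a TRIM28 relative that can form complexes with it, had 79.2 CPM in KO and 22.4 CPM in WT, a ratio of 3.53 (2.85 to 4.37). The maintenance DNA methyltransferase Dnmt1 had 47.6 and 21.0 CPM (2.27, 1.76 to 2.91). Tasor, the HUSH scaffold, had 34.0 and 21.0 CPM (1.61, 1.21 to 2.13), whereas its paralogue Tasor2 had 17.9 and 18.7 CPM (0.960, 0.655 to 1.37). Also past the fold were Lrif1, an HP1-binding factor (1.86, 1.35 to 2.53), the histone demethylase Kdm1a (1.76, 1.59 to 1.94), the NuRD remodeller Chd3 (1.76, 1.46 to 2.11) and Mga, of a PRC1 variant (1.58, 1.27 to 1.96). L3mbtl2 (1.67, 0.851 to 3.13) and the zinc-finger gene Zfp932 (1.61, 0.933 to 2.68) passed the fold with intervals that include 1. The de novo methyltransferase Dnmt3a was the one lower, at 8.49 CPM in KO and 14.4 CPM in WT (18 and 123 UMIs, 0.588, 0.337 to 0.968).

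In cycling cells 4 of 47 list genes were higher and 0 lower, against 6.51% and 6.89% of all genes: Trim24 (71.3 CPM in KO and 19.1 CPM in WT, 3.74, 2.89 to 4.90), the retroviral-silencing zinc-finger gene Zfp809 (1.79, 1.10 to 2.98), Kdm1a (1.64, 1.49 to 1.81) and Tasor (1.58, 1.19 to 2.11). Tasor2 was at 0.825 (0.586 to 1.16). In Myog cells 4 of 35 were higher and 0 lower, against 9.26% and 6.85%: Trim33, another TRIM28 relative (2.12, 1.32 to 3.53), the deacetylase Hdac1 (2.04, 1.41 to 3.03), Trim24 (1.65, 0.947 to 3.01) and Chd3 (1.63, 1.38 to 1.93). Tasor and Tasor2 were at 0.928 (0.547 to 1.599) and 1.39 (0.782 to 2.56) there. Trim24 was thus past the fold in all 3 states, though in Myog cells its interval includes 1. Upward, the list was near the share of all genes in cycling and Myog cells. Downward, it had 0 against 6.89% and 6.85% of all genes.

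**Figure D5:**
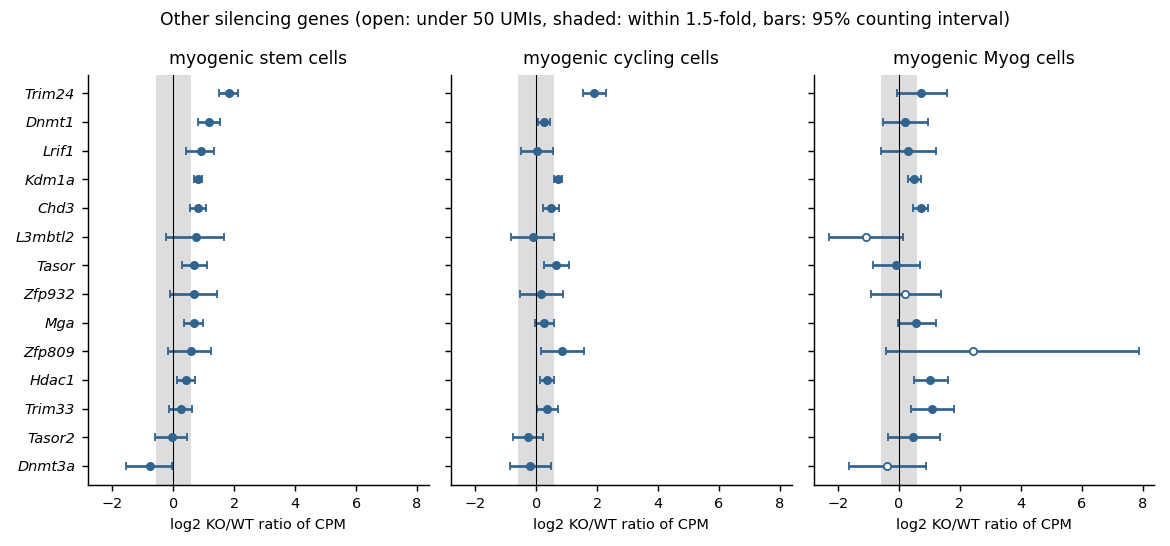
KO/WT log2 ratio, with 95% counting intervals, of the listed silencing genes past 1.5-fold in at least 1 myogenic state, plus Tasor and Tasor2; open points have under 50 UMIs and the shaded range is within 1.5-fold. Trim24 stands highest in stem (3.53-fold) and cycling cells (3.74-fold), and Dnmt3a is lowest in stem cells at 0.588.

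Over 20 sums of a class in a library, the genes whose log2(CPM + 5) ran most like Resf1 (Pearson's r, 11501 genes compared) were Vmn1r43 (0.926), Gm9864 (0.925), Platr5 (0.919), Slco1a5 (0.915) and Gm16897 (0.913). For Atf7ip they were Gm16897 (0.936), Gm9864 (0.929), Platr5 (0.919), Tmem52 (0.916) and Slco1a5 (0.913), so 4 genes stood in both sets. In WT stem cells these 6 genes had at most 1.17 CPM: Gm9864 had 83.0 CPM in KO and 0.352 CPM in WT stem cells, and Tmem52 had 40.6 and 0.235 CPM. Resf1 and Atf7ip had an r of 0.877 with each other. The KO stem and cycling sums stand apart from the other 18, which held 48.7 to 163 CPM of Resf1, and sums of 1 library share its depth and free RNA, so these values are a description only. For Setdb1 the nearest genes were Htatip2 (0.614), Fnip1 (0.599), Ccdc22 (0.545), Gm37204 (0.526) and Thap6 (0.517), none of them close. Among the HUSH genes, Mphosph8 and Morc2a had an r of 0.763, and Trim28 one of 0.666 with Mphosph8 and 0.698 with Morc2a.

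Within 500 kb of Resf1, 7 genes had at least 50 UMIs in stem cells, with ratios from 0.709 to 2.91 and a median of 1.18, and 2 were past 1.5-fold upward, against 10.8% of all stem genes. These, named after their values were seen, were Etfbkmt (21.2 CPM in KO and 7.28 CPM in WT, 2.91, 1.94 to 4.35) and Bicd1 (8.96 and 4.70 CPM, 1.91, 1.04 to 3.37). Within 500 kb of Atf7ip 4 genes were measured, from 1.12 to 1.69, and 1 was past the fold, against the same 10.8%: Mgp, at 2045 CPM in KO and 1208 CPM in WT. Resf1 and Atf7ip, on the same chromosome but far apart, thus each exceeded their measured neighbours.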

How the data were processed

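The files deposited by the authors hold whole UMI counts per gene and barcode for 1 KO and 1 WT library, made with a 10x 3′ v2 kit per the labels' protocols. Build GRCm38 and the tools Seurat 4.0.1, STAR 2.7.8a and STARsolo 2.7.9a come from the submitters' processing notes, without their parameters. All barcodes summed to 138667420 UMIs in KO and 121703522 in WT.

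Barcodes with at least 5000 UMIs and 300 genes and at most 10% mitochondrial UMIs were kept (6779 of 6799 in KO, 6705 of 6732 in WT). Scrublet's own threshold marked 0 doublets in each library, and the top-scoring barcodes, 0.8% for each 1000, were left out instead (368 in KO, 360 in WT). Both libraries were clustered together (scanpy 1.11.5, Leiden resolution 1, 2000 variable genes, 30 components) without the 7 genes and the pathway list, and named from marker lists; myogenic cells were sub-clustered at resolution 0.2. UMIs were summed per class and library. CPM intervals are exact Poisson, ratio intervals exact conditional binomial, all at 95%. They take every UMI as independent and cover no spread between cells or animals. The named genes are the 7 members, listed silencing genes past 1.5-fold with at least 50 UMIs, Tasor and Tasor2, and the 5 most alike genes. Gene positions are GENCODE annotations of GRCm38. Members and lists were chosen with earlier results of these data known. Sums and ratios were tested on simulated data. TMM factors came from edgeR 4.0.16, as an alternative only. Each group is 1 library, so depth and cell number alone set the precision given.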

Additional observations from a re-analysis of the deposited data

Results flagged for a closer look

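For 2 genes the KO/WT ratio pointed in opposite directions in different cell classes, with counting intervals on opposite sides of 1. The difference between classes was not tested, since each rests on 1 library per group. Setdb1 was lower in KO cycling myogenic cells, at a ratio of 0.379, and higher in KO phagocytes, at 1.28. Resf1 was higher in KO myogenic stem cells, at 11.4, and lower in KO tenocytes, at 0.479, the class where the summed level was lower in KO but the median cell was at 29.9 CPM in KO and 0 CPM in WT.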

How the results depend on the processing

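No paired analysis was possible because each group has 1 library. In stem cells, 13 alternatives were run for each of the 7 genes. Among them, clustering at resolution 2 returned the same myogenic cells and states, so it could not move the myogenic ratios. Resf1 stayed between 10.2 and 12.5 and Atf7ip between 4.18 and 5.73. Resf1 left its counting interval at 10.4 with a minimum of 2000 UMIs, 10.5 with median-of-ratios scaling, 10.2 with TMM scaling, 12.5 as a mean over cells and 10.2 with states read from Mki67, Top2a and Myog UMIs, where Atf7ip was 4.18. Setdb1 ranged from 0.403, with no doublet removal, to 0.767, and stayed below 1 in all 13. With cells thinned to 5000 UMIs, Morc2a was 0.377 in stem cells, and in Myog cells it had no WT UMI and hence no ratio. No called ratio of a gene with at least 50 UMIs turned its direction in any class. Below that limit, Morc2a in mural cells (12 UMIs in KO and 9 in WT) went from 0.642 to 1.07 with a minimum of 10000 UMIs. With no doublet removal the states were regrouped (94 KO and 469 WT stem cells, 197 and 149 Myog cells), and Resf1 in Myog cells was 4.96. Listed silencing genes higher in stem cells numbered 5 with a minimum of 2000 UMIs and 2 at 2-fold, against 9; in cycling cells 1 at 2-fold, against 4; in Myog cells 2 at 2-fold and 10 with a filter of 1 UMI, against 4. Scaling by median of ratios or TMM gave 6 higher and 3 lower in stem cells. For none of these other settings was the share of all genes past the fold counted, so the list counts there cannot be set against it. Alternatives leaving out barcodes with other markers were chosen after seeing the data. Low UMI totals limit Setdb1, Morc2a and Pphln1 most, and the missing replicates limit every ratio. Causes of these shifts were not tested.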

Other observations

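A cluster of 186 KO and 5 WT barcodes, with a median of 6366 UMIs in KO, was in no comparison. The marker rule placed it with tenocytes, but it carried genes of several types together: 4670 CPM of Lyz2, 2494 CPM of C1qa, 5323 CPM of Col1a1 and 39.7 CPM of Myod1. Free RNA could make up as much as 26.8% of it by the marker limit. It had 198 CPM of Resf1 (284 UMIs, 175 to 222) and 41.8 CPM of Atf7ip (60 UMIs, 31.9 to 53.8), beside 171 and 34.4 CPM in the KO library's free RNA.

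In the other small clusters below 50 cells in 1 library, 37 KO and 50 WT T or NK lymphocytes had 102 CPM of Atf7ip in KO (44 UMIs) and 45 CPM in WT (37 UMIs), a ratio of 2.28 (1.44 to 3.63). Resf1 had 119 CPM in KO (51 UMIs) and 77.8 CPM in WT (64 UMIs), a ratio of 1.53 (1.03 to 2.24). Both were higher in KO here, outside the myogenic cells, with counting intervals clear of 1. The share of all genes past 1.5-fold was not counted in these lymphocytes. Other small classes did not all run this way: Atf7ip was 0.935 (0.439 to 1.96) in Schwann or glial cells and 0.838 (0.370 to 1.98) in muscle fibres. Resf1 was 1.53 (0.656 to 3.68) and 1.34 (0.772 to 2.42) there. Each of these intervals includes 1.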
